A study of Mus musculus with 12 samples.

Results

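Trimethylation of lysine 4 on histone H3 (H3K4) marks active promoters, and monomethylation of the same residue marks enhancers. In mammals the KMT2 and SETD1 methyltransferases write these marks in large complexes that share a core of common subunits, and the KDM5 demethylases remove the trimethyl and dimethyl forms. Mutations in several of the corresponding human genes cause neurodevelopmental disorders with intellectual disability. This account follows 10 such genes, chosen by name: the methyltransferase family genes Kmt2a, Kmt2b, Kmt2c, Kmt2d, Kmt2e, Setd1a and Setd1b, and the demethylase genes Kdm5a, Kdm5b and Kdm5c. All 10 were found among the 46603 gene identifiers of the count tables and all passed the filter on low counts. KMT2E belongs to the family by sequence, although its own methyltransferase activity is doubtful.

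Neocortical RNA was sequenced from wildtype Chd8+/+ and heterozygous Chd8+/- mice at embryonic day 12.5 (E12.5) and at postnatal day 5 (P5), with n = 3 libraries in each of the 4 groups. All mice had a C57Bl/6J background. The mutant mice carry 1 null allele of Chd8, which encodes a chromatin remodeler, in every cell. That allele arose by deletion of exon 3, flanked by loxP sites, through a ubiquitously active β-actinCre transgene that was crossed out afterwards; 2 embryonic stem cell clones were injected to found the line, and which of them these mice descend from is not given in the sources used here. Both hemispheres were taken at E12.5 and a single one at P5, so that stage cannot be told apart from dissection, preparation and sequencing run. A replicate is a library, and p-values measure the spread between these libraries.

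The libraries hold between 38774591 and 54695236 counts on genes, and each member has between 1025 and 15907 counts in every library. The 10 genes that mark neocortex were all at 1 CPM or more in every group (counts per 1000000 counts of a library after TMM scaling). In the check of the genotype labels, Chd8 itself stood at 236, 233 and 238 CPM in the Chd8+/+ libraries at E12.5 and at 164, 169 and 164 CPM in the Chd8+/- libraries. At P5 the values were 148, 148 and 143 CPM against 95.2, 97.7 and 94.1 CPM. The log2 fold change of Chd8 was -0.51 ± 0.04 (SE, edgeR adjusted p = 0.00562) at E12.5 and -0.61 ± 0.03 (edgeR adjusted p = 7.21e-05) at P5. At E12.5 its size held but the call was lost with a term for Xist (edgeR adjusted p = 0.0527), with a replicate block (0.346), without the libraries of high Xist (0.966), and without any 1 of 3 single libraries (0.122 to 0.141). Every Chd8+/- library was below every Chd8+/+ library of its stage. The third Chd8+/- library at P5 stood apart from its group over all genes, with a chi-square per degree of freedom of 33.2 and 29.3 against the other 2, whereas the remaining pairs within a group ran from 5.11 to 12.6. CPM are scaled within a stage for comparisons of genotype and over all 12 libraries for comparisons of stage and for levels per length.

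The members lie as follows on GRCm38, with the length of their merged exons. Of the methyltransferase family genes, Kmt2a lies at chr9:44803355-44881296 (minus strand, 16670 bases), Kmt2b at chr7:30568858-30588726 (minus, 9596 bases), Kmt2c at chr5:25271798-25498783 (minus, 20291 bases), Kmt2d at chr15:98831669-98871204 (minus, 19887 bases) and Kmt2e at chr5:23434441-23504235 (plus, 10444 bases). Setd1a lies at chr7:127776670-127800122 (plus, 6795 bases) and Setd1b at chr5:123142193-123168629 (plus, 12068 bases). Of the demethylase genes, Kdm5a lies at chr6:120364124-120444574 (plus, 14158 bases), Kdm5b at chr1:134560171-134635285 (plus, 16555 bases) and Kdm5c at chrX:152233020-152274535 (plus, 7110 bases).

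Promoter sequences from RefSeq (GRCm38.p6, a later patch of the GRCm38 build to which the reads were aligned) were matched by symbol for 6 of the 10 members: Kmt2a, Kmt2c, Kmt2d, Setd1a, Kdm5b and Kdm5c. Each covers 300 bases, from 250 before the start of transcription to 50 after it. A pair of demethylase genes and Kmt2c are shown because their promoters differ widely in CpG dinucleotides. At these sites unmethylated promoters bind the CXXC domains of several methyltransferase complexes. Capitals mark matches to the GC box GGGCGG or to the CCAAT box CCAAT, on either strand, with overlapping matches joined. Kdm5b lies at chr1:134559928-134560227 on the plus strand, Kdm5c at chrX:152232977-152233276 on the plus strand, and Kmt2c at chr5:25498734-25499033 on the minus strand.
Kdm5b: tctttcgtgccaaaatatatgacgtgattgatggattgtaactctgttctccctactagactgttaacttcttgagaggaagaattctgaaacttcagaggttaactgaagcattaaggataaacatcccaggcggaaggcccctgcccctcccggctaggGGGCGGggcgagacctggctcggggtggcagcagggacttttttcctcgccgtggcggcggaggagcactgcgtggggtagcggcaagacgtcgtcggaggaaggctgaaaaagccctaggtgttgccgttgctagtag
Kdm5c: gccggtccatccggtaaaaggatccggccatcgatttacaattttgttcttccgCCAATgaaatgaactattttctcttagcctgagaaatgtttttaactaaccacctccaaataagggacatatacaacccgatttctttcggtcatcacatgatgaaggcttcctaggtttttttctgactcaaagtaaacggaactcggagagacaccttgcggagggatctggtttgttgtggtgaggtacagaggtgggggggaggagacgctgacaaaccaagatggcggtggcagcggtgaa
Kmt2c: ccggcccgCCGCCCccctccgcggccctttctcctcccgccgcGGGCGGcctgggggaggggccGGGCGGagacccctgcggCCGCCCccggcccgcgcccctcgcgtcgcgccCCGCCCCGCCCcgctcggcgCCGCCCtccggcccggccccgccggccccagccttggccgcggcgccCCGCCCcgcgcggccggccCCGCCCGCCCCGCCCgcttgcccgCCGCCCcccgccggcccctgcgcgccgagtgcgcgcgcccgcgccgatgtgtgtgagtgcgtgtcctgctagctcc

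The Kmt2c promoter holds 56 CpG and 12 GC boxes, and 0.195% of the 32851 mouse promoters in the table hold as many CpG. The Kdm5b promoter holds 17 CpG and 1 GC box, and the Kdm5c promoter 13 CpG and 1 CCAAT box, against a median of 7 CpG over all promoters. As many CpG as in these are found in 31.4% and 37.9% of promoters. Among the 6 members' promoters the GC box is found in Kmt2a, Kmt2c, Kmt2d and Kdm5b, and in 35.7% of all promoters. The Kmt2d entry is less certain, since its bases after the start do not match the annotated transcript. The CCAAT box is found in Kdm5c and in 37.4% of all promoters, the core CCGGAA bound by ETS factors in Kmt2a and in 14.9%, and neither the core GCATGCGC bound by NRF1 (2.71% of all promoters) nor the TATA box TATAAA (13.6%) in any of the 6. All 6 promoters are richer in CpG than the median promoter, with Kdm5c lowest.

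Levels were compared between members as CPM per kilobase of merged exons. In the Chd8+/+ neocortex at E12.5, the X-linked demethylase gene Kdm5c was highest at 28.9 ± 6.33 CPM per kilobase (SD, n = 3). Kmt2e followed at 22.0 ± 1.29, Kmt2b at 18.2 ± 2.59 and Kmt2a at 17.5 ± 1.85. Below these stood Kdm5b at 13.8 ± 0.533, Kmt2d at 10.6 ± 1.67, Setd1b at 9.44 ± 1.22, Kmt2c at 8.87 ± 0.257, Kdm5a at 8.36 ± 0.175 and Setd1a at 6.79 ± 0.601. Neighbours in this order whose 3 libraries overlapped, and which do not differ beyond their spread, were Kmt2b and Kmt2a, Kmt2d and Setd1b, and Setd1b and Kmt2c. Both enzyme classes had members near the top and near the bottom of the order.

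At P5 the top of the order changed, and on merged exons so did the bottom. In Chd8+/+ libraries Kmt2e was highest at 16.2 ± 0.28 CPM per kilobase (SD, n = 3), ahead of Kdm5c at 12.7 ± 2.06, Kmt2b at 11.9 ± 1.01 and Kmt2a at 10.6 ± 0.579. Kdm5b stood at 7.34 ± 0.0875, Kmt2d at 5.89 ± 0.598, Kmt2c at 5.76 ± 0.16, Setd1b at 5.58 ± 0.0758 and Setd1a at 3.79 ± 0.282, and Kdm5a was lowest at 2.92 ± 0.0425. Kdm5c overlapped with Kmt2b, Kmt2b with Kmt2a, Kmt2d with Kmt2c, and Kmt2c with Setd1b. Kdm5a was apart from Setd1a, the member above it, in both genotypes at P5. Kmt2e and Kdm5c, apart in Chd8+/+ libraries, overlapped in the Chd8+/- libraries at P5 (13.7 ± 0.758 and 12.1 ± 1.75 CPM per kilobase). The level of Setd1a is uncertain because 51.8% of its exon bases are shared with Hsd3b7, annotated on the same strand. Its whole count divided by the unshared bases alone gives 14.1 ± 1.25 CPM per kilobase at E12.5 and 7.87 ± 0.586 at P5 in Chd8+/+ libraries. There its range overlapped that of Kdm5b. This scale holds only if no read on shared bases was counted, which was not tested. On this scale Kdm5a was lowest at both stages in Chd8+/+ libraries, at 8.51 and 2.97 CPM per kilobase. Its range overlapped those of Setd1b and Kmt2d at E12.5. In Chd8+/- libraries at E12.5 Kmt2c, at 8.52, and Kdm5a, at 8.69, overlapped at the bottom. Kmt2e shares 9.31% of its exon bases with Srpk2, Kdm5a 1.77% with Ccdc77 and Kmt2c 1.35% with Gm42585, all on the opposite strand, and the remaining 6 members share none. For Kmt2e the same division by unshared bases alone changes the comparison with Kdm5c. The pair was then apart in Chd8+/- libraries at P5 (at least 14.4 against at most 14.1 CPM per kilobase). The pair overlapped in Chd8+/+ libraries at E12.5 (22.7 to 25.45 against 24.9 to 36.2). The counts are the same on both scales, and whether reads on the shared bases were counted was not tested.

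**Figure D1:**
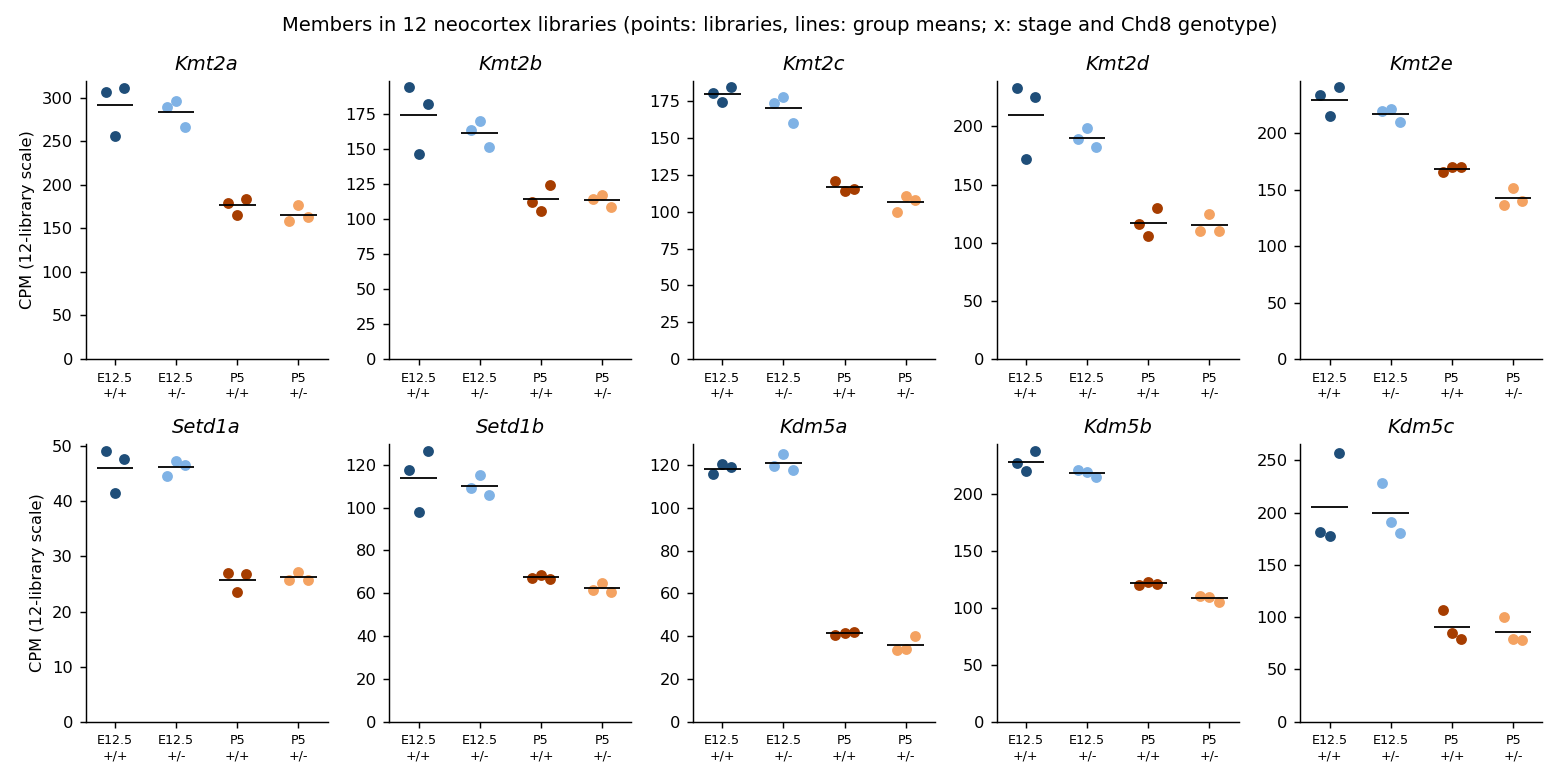
CPM of each member on the 12-library scale (vertical axes from 0) in the 12 libraries, by stage and Chd8 genotype; points are libraries and lines are group means (n = 3). All 10 members are lower at P5 than at E12.5 without overlap, and Kdm5c has 1 library above the others in every group.

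The first question was whether loss of 1 Chd8 allele changes these genes at P5. In Chd8+/- neocortex, 8 of the 10 members were lower and 2 higher, but the differences were small: log2 fold changes ran from -0.23 for Kmt2e to 0.04 for Setd1a, with a median of -0.09 against 0.00169 over all 18666 genes tested. None of the 10 passed the adjusted threshold of 0.05 in edgeR, where Chd8 was the only gene called (0.00536% of genes tested). At an unadjusted p under 0.05, 5 of 10 were lower and 0 higher, against 17.8% of all genes in either direction. The same 5 were the members whose genotypes did not overlap, all lower, against 12.2% of all genes without overlap and lower. In bulk RNA, fewer cells of a type and less RNA per cell cannot be told apart.

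Kmt2e had the smallest p of the members. Its libraries stood at 162, 167 and 168 CPM in Chd8+/+ and at 136, 150.0 and 139 CPM in Chd8+/- neocortex at P5. Every Chd8+/- library was below every Chd8+/+ library. The log2 fold change was -0.23 ± 0.04 (SE), a decrease by 14.6%, with an edgeR unadjusted p of 0.000353 and an adjusted p of 0.095. KMT2E binds H3K4 trimethylation through its PHD finger.

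The estimates of the 3 demethylase genes were not alike, but a difference among them was not tested. Kdm5b stood at 118, 120.4 and 119 CPM in Chd8+/+ and at 110, 109 and 105 CPM in Chd8+/- libraries at P5. These groups did not overlap, and the log2 fold change was -0.15 ± 0.03 (SE, edgeR adjusted p = 0.110). Kdm5a, whose protein was first described as a partner of the retinoblastoma protein, stood at 39.9, 40.5 and 41.1 CPM against 33.6, 33.7 and 39.8 CPM. The groups did not overlap, but the third Chd8+/- library came close to the lowest Chd8+/+ library. The log2 fold change was -0.18 ± 0.06 (SE, edgeR adjusted p = 0.197), and -0.26 without that library (edgeR adjusted p = 0.192). Kdm5c, mutated in a form of X-linked intellectual disability, stood at 105, 83.0 and 77.8 CPM against 99.9, 78.8 and 77.5 CPM. Its groups overlapped, and its log2 fold change of -0.06 ± 0.11 (SE, edgeR adjusted p = 0.835) leaves an interval of 2 standard errors either side from -0.28 to 0.17.

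Kmt2c and Kmt2d encode the paralogous methyltransferases that monomethylate enhancers. At P5, Kmt2c stood at 118, 112 and 114 CPM in Chd8+/+ and at 99.7, 110 and 107 CPM in Chd8+/- libraries, without overlap. Its log2 fold change was -0.12 ± 0.04 (SE, edgeR adjusted p = 0.198). It was -0.08 without the first Chd8+/- library and -0.05 without the libraries of high Xist described below. Kmt2d spread more widely, over 114, 104 and 127 CPM against 109, 123 and 109 CPM, and its groups overlapped. Its log2 fold change of -0.01 ± 0.07 (SE, edgeR adjusted p = 0.943) leaves an interval of 2 standard errors from -0.16 to 0.13.

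Kmt2a and Kmt2b, the mammalian counterparts of Drosophila trithorax, overlapped between genotypes at P5. Kmt2a stood at 176, 162 and 181 CPM in Chd8+/+ libraries, against 157, 175 and 161 CPM in Chd8+/-, and its log2 fold change was -0.07 ± 0.05 (SE, edgeR adjusted p = 0.496), which ran from -0.12 to -0.04 when 1 library was left out and was -0.02 without the libraries of high Xist. Kmt2b stood at 110.3, 103 and 123 CPM against 114, 116 and 108 CPM, with a log2 fold change of 0.01 ± 0.06 (SE, edgeR adjusted p = 0.959). The intervals of 2 standard errors were -0.18 to 0.03 for Kmt2a and -0.11 to 0.12 for Kmt2b.

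Setd1a and Setd1b encode the catalytic subunits of the SETD1 complexes, which place much of the trimethylation at promoters. Setd1b stood at 65.7, 66.9 and 65.6 CPM in Chd8+/+ and at 61.0, 64.3 and 60.0 CPM in Chd8+/- libraries at P5. Its groups did not overlap, and the log2 fold change was -0.10 ± 0.04 (SE, edgeR adjusted p = 0.226). Setd1a stood at 26.4, 23.0 and 26.4 CPM against 25.6, 26.9 and 25.4 CPM, with a log2 fold change of 0.04 ± 0.06 (SE, edgeR adjusted p = 0.784), and its groups overlapped.

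These calls depended on the test. With DESeq2, the tool used in the study, 2 of the 10 members were called lower at P5, Kmt2e (DESeq2 adjusted p = 0.000755) and Kdm5b (DESeq2 adjusted p = 0.0294), against 5.28% of the genes that passed its filter. With all genes of at least 1 count kept, edgeR called the same 2 members, against 3.18% of genes. Without the second Chd8+/- library at P5, edgeR called Kmt2e alone (adjusted p = 0.0205), against 1.72% of genes. The direction of Kmt2e, Kdm5b, Kdm5a, Kmt2c and Setd1b was lower under every alternative tried, and no alternative called another member. Without the third Chd8+/- library, the one that stands apart, the log2 fold change was -0.20 for Kmt2e, -0.12 for Kdm5b, -0.12 for Kmt2c and -0.07 for Setd1b, and none of the 10 members was called. In the same fit Kmt2a was at -0.05, Kmt2b at 0.05 and Setd1a at 0.06, and Kmt2d at 0.02 and Kdm5c at 0.02 changed sign.

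Length moved with the genotype difference at P5. Of the members, 8 have merged exons of at least 8400 bases, the lower bound of the top length decile of the genes tested. In that decile the median log2 fold change was -0.06 and 73.6% of genes were lower, against 0.06 and 39.9% in the bottom decile. With offsets that remove the trend with length, the log2 fold change was -0.16 for Kmt2e (edgeR adjusted p = 0.168), -0.10 for Kdm5a, -0.06 for Kdm5b, -0.03 for Kmt2c and -0.03 for Setd1b, while Kmt2a at 0.01 and Kmt2d at 0.08 lay above 0. The offsets moved every member upward. Markers of neighbouring tissue moved too: all 6 choroid plexus markers were lower in Chd8+/- libraries at an unadjusted p under 0.05, with a summed level of 317 to 374 CPM against 430 to 558 CPM. All 6 striatal markers were lower in the same way, with sums of 159 to 193 CPM against 217 to 238 CPM. Of the other lists, 3 of 5 interneuron and 4 of 5 endothelial markers were lower at an unadjusted p under 0.05, with sums of 353 to 424 CPM against 438 to 455 CPM and of 166 to 185 CPM against 184 to 209 CPM. Neocortical markers passed at that level in 3 of 10 (all lower), progenitor markers in 3 of 6 (2 lower), neuronal markers in 3 of 6 (2 lower), erythrocyte markers in 2 of 3 tested (both lower), meningeal markers in 1 of 5 (higher), and no microglial, astrocytic or oligodendrocyte marker did. No marker passed the adjusted threshold, and their part in the members' differences was not tested.

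**Figure D2:**
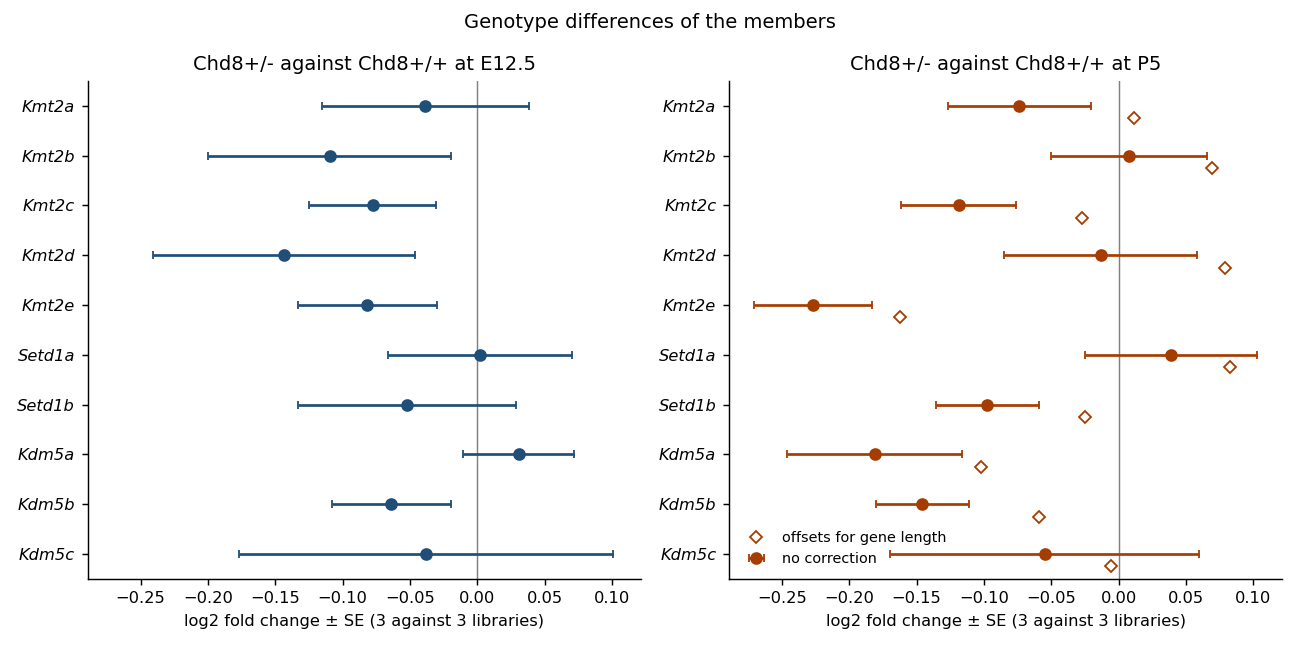
Log2 fold change of each member in Chd8+/- against Chd8+/+ libraries at E12.5 (left) and P5 (right), with bars of 1 standard error (3 against 3 libraries); open diamonds are the P5 values with offsets for gene length. At P5, Kmt2e lies farthest from 0 at -0.23, and each diamond lies to the higher side of the value without offsets.

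The same comparison at E12.5, when progenitors predominate, called no member. Log2 fold changes ran from -0.14 for Kmt2d to 0.03 for Kdm5a, with a median of -0.06 against 0.000576 over all 18081 genes tested. None of the 10 members was called by edgeR (0.00553% of genes called, Chd8 alone), none had an unadjusted p under 0.05 (5.15% of genes), and DESeq2 called none of them. The smallest unadjusted p in edgeR's test was 0.133, for Kmt2c at -0.08 ± 0.05, which was -0.04 without the third Chd8+/- library. For the 10 members, edgeR's adjusted p lay between 0.944 and 0.999.

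Kdm5b was the only member without overlap at E12.5, against 5.9% of all genes without overlap and lower. It stood at 230.0, 225 and 240.5 CPM in Chd8+/+ and at 224, 222 and 219 CPM in Chd8+/- libraries, and on the 12-library scale its groups overlapped. Its log2 fold change was -0.06 ± 0.04 (SE). Kmt2e, lowest in p at P5, stood at 236, 219 and 244 CPM against 223, 225 and 214 CPM at E12.5, with overlap and a log2 fold change of -0.08 ± 0.05 (SE). Kdm5a stood at 117, 123 and 120.3 CPM against 121, 127 and 120 CPM, and Kdm5c at 183, 181 and 260.2 CPM against 231, 194 and 183 CPM. Neither demethylase gene separated the genotypes at this stage.

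The widest spread among the methyltransferase genes at E12.5 was in Kmt2d, at 235, 176 and 228 CPM in Chd8+/+ and 192, 201 and 186 CPM in Chd8+/- libraries. Kmt2b was spread alike over 197, 150 and 185 CPM against 166, 172 and 154 CPM. In both genes the second Chd8+/+ library was the lowest of the 6. Without it the log2 fold change was -0.26 for Kmt2d and -0.22 for Kmt2b, in place of -0.14 and -0.11. Without the first Chd8+/+ library it was -0.07 and -0.03, and neither gene was called in any of these fits. On the 12-library scale Kmt2a stood at 307, 256 and 311 CPM against 289, 296 and 266 CPM, and within the stage Setd1b at 119, 99.8 and 128 CPM against 111, 117 and 107 CPM, again with that library lowest. Kmt2c stood at 183, 178 and 187 CPM against 176, 180 and 163 CPM, and Setd1a at 49.7, 42.3 and 48.3 CPM against 45.3, 47.8 and 47.4 CPM. The intervals of 2 standard errors were -0.34 to 0.05 for Kmt2d, -0.29 to 0.07 for Kmt2b, and -0.17 to 0.02 for Kmt2c. Of the marker lists, interneuron and endothelial markers were lower in Chd8+/- libraries at an unadjusted p under 0.05 in 2 of 5 each, with endothelial sums of 189 to 199.6 CPM against 214 to 216 CPM, and their part was not tested.

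Departures from the group mean were therefore set side by side for all members. In the second Chd8+/+ library at E12.5, the log2 departure was -0.27 for Kmt2d, -0.23 for Kmt2b, -0.20 for Setd1b, -0.18 for Kdm5c, -0.17 for Kmt2a and -0.14 for Setd1a. In the same library Kmt2e lay at -0.09, Kmt2c and Kdm5b at -0.04 and Kdm5a at 0.04. The longest transcripts of the first 6 genes hold 50.6% to 59.1% GC and those of the other 4 hold 43.3% to 47.6%. Over the decile of genes richest in GC, the median departure of this library was -0.03. It was 0.035 in the first Chd8+/+ library, where Kmt2b lay at 0.161 and Kmt2d at 0.155. In the third it was -0.011, although Setd1b at 0.156 and Kmt2d at 0.113 lay above the group mean. Kdm5c was also low in the first Chd8+/+ library (-0.16), since the third was high, so that its value is not particular to the second. At P5, the second Chd8+/+ library had Kmt2d at -0.15, Setd1a at -0.13, Kmt2b at -0.11 and Kmt2a at -0.09, and the third had Kmt2d at 0.15 and Kmt2b at 0.13. The medians over the decile richest in GC ran the other way there, at 0.01 in the second and -0.00803 in the third library. Setd1b, at 59% GC, did not follow Kmt2d and Kmt2b at P5, at 0.0184 in the second and -0.0104 in the third. The part of GC content in these departures was not tested. The single largest departure was that of Kdm5c in the third Chd8+/+ library at E12.5, at 0.34.

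**Figure D3:**
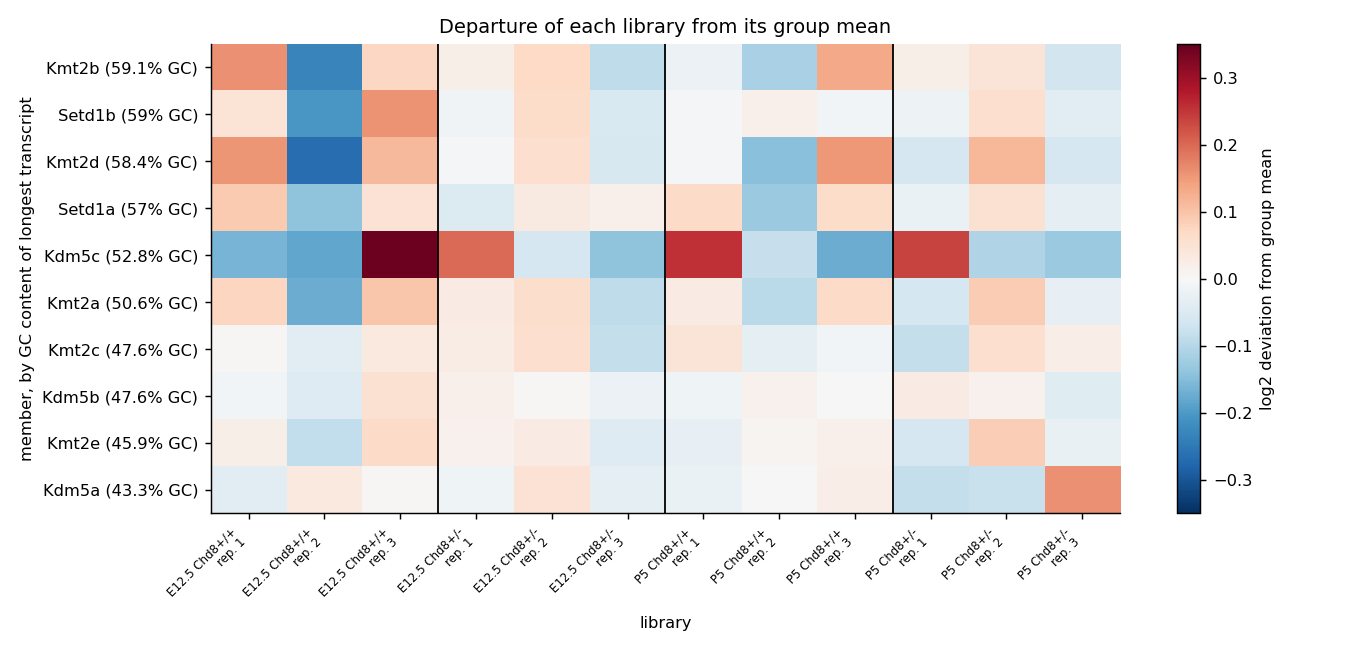
Log2 departure of each library (columns, by group and replicate) from the mean of its group for each member (rows, ordered by GC content of the longest transcript in percent); red is above and blue below the group mean. The second Chd8+/+ library at E12.5 is low in Kmt2d (-0.27) and Kmt2b (-0.23), and Kdm5c is high in 1 library per group, up to 0.34.

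The second question was how the members change between the 2 stages. All 10 fell from E12.5 to P5 in Chd8+/+ neocortex, each without overlap between stages, and all 10 passed the adjusted threshold, against 41.7% of all 19676 genes tested that were called lower and 42.4% that were lower without overlap. All 10 also fell without overlap in Chd8+/- neocortex, against 41.6% of all genes called lower and 42.2% lower without overlap. The median log2 fold change over the members was -0.80 in both genotypes, against -0.02 and -0.00462 over all genes. The 2 comparisons use different libraries but 1 model.

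The estimates of the demethylase genes were the lowest, an order that held in most but not all settings. In Chd8+/+ libraries Kdm5a went from 116, 121 and 119 CPM at E12.5 to 40.6, 41.4 and 41.8 CPM at P5, on the 12-library scale. This is a 2.87-fold decrease, with a log2 fold change of -1.52 ± 0.06 (SE, edgeR adjusted p = 2.81e-12). Kdm5c went from 181, 177 and 257 CPM to 107, 84.9 and 79.1 CPM, a 2.27-fold decrease with a log2 fold change of -1.18 ± 0.15 (SE, edgeR adjusted p = 3.89e-06). Kdm5b went from 228, 220.1 and 238 CPM to 120.2, 123 and 121 CPM, a 1.88-fold decrease with a log2 fold change of -0.91 ± 0.04 (SE, edgeR adjusted p = 8.62e-12). In Chd8+/- libraries the log2 fold changes were -1.75 ± 0.06 for Kdm5a, -1.22 ± 0.15 for Kdm5c and -1.01 ± 0.04 for Kdm5b.

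The estimates of the methyltransferase genes were nearer 0. In Chd8+/+ libraries their log2 fold changes were -0.84 ± 0.10 (SE) for Kmt2d, -0.84 ± 0.07 for Setd1a, -0.76 ± 0.07 for Setd1b and -0.72 ± 0.07 for Kmt2a. It was -0.62 ± 0.05 for Kmt2c, -0.61 ± 0.09 for Kmt2b and -0.45 ± 0.05 for Kmt2e, which fell least. The edgeR adjusted p of these 7 genes was at most 1.2e-05. Kmt2e went from 234, 215 and 241 CPM to 165, 170.5 and 170.5 CPM, and Kmt2d from 233, 172 and 226 CPM to 116, 106 and 130 CPM, both on the 12-library scale. In Chd8+/- libraries the 7 log2 fold changes ran from -0.82 for Setd1b to -0.51 for Kmt2b.

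Each demethylase gene thus had a lower estimate than each methyltransferase gene in both genotypes, although Kdm5b at -0.91 ± 0.04 is within the standard errors of Kmt2d at -0.84 ± 0.10 and of Setd1a at -0.84 ± 0.07 in Chd8+/+ libraries. The difference between the classes was not tested. This order held in 22 of 25 settings in Chd8+/+ and 24 of 25 in Chd8+/- neocortex. It did not hold with offsets for GC content, where Kdm5b at -1.05 fell less than Kmt2d at -1.45, Setd1b at -1.41, Setd1a at -1.36 and Kmt2b at -1.27 in Chd8+/+ libraries, nor in Chd8+/+ without the second E12.5 or without the third P5 Chd8+/+ library. The ratio of the summed CPM of the 3 demethylase genes to that of the 7 methyltransferase genes was 0.399 to 0.478 in the 6 libraries at E12.5 and 0.289 to 0.346 at P5, without overlap. That ratio is a description of counts and depends on gene length.

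Offsets for gene length or GC content moved the median of all genes between the stages to -0.24 and -0.23 in Chd8+/+ libraries, and all 10 members remained lower than that median. With offsets for length, Kmt2e was at -0.68, Kmt2c at -0.87 and Kdm5a at -1.76. The tissue differed between stages as well: the summed level of 6 progenitor markers was 3941 to 4260 CPM in Chd8+/+ libraries at E12.5 and 261.2 to 292 CPM at P5, and that of 6 neuronal markers 2944 to 3475 CPM and 6203 to 6359 CPM. Each of these 12 marker genes was called, the progenitor markers lower and the neuronal markers higher. All 6 striatal and all 5 microglial markers were called higher, as were 4 of 5 astrocyte, 4 of 5 oligodendrocyte and 4 of 6 choroid plexus markers (the other 2 lower). Erythrocyte markers were called in 5 of 5 (4 lower), with Hbb-y under 0.1 CPM in every P5 library, and endothelial markers in 5 of 5 (3 lower). Meningeal markers were called in 4 of 5 (3 lower), interneuron markers in 3 of 5 (2 lower) and neocortical markers in 9 of 10 (6 lower). The other markers called in these lists were higher. The part of all these markers in the members' fall was not tested.

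**Figure D4:**
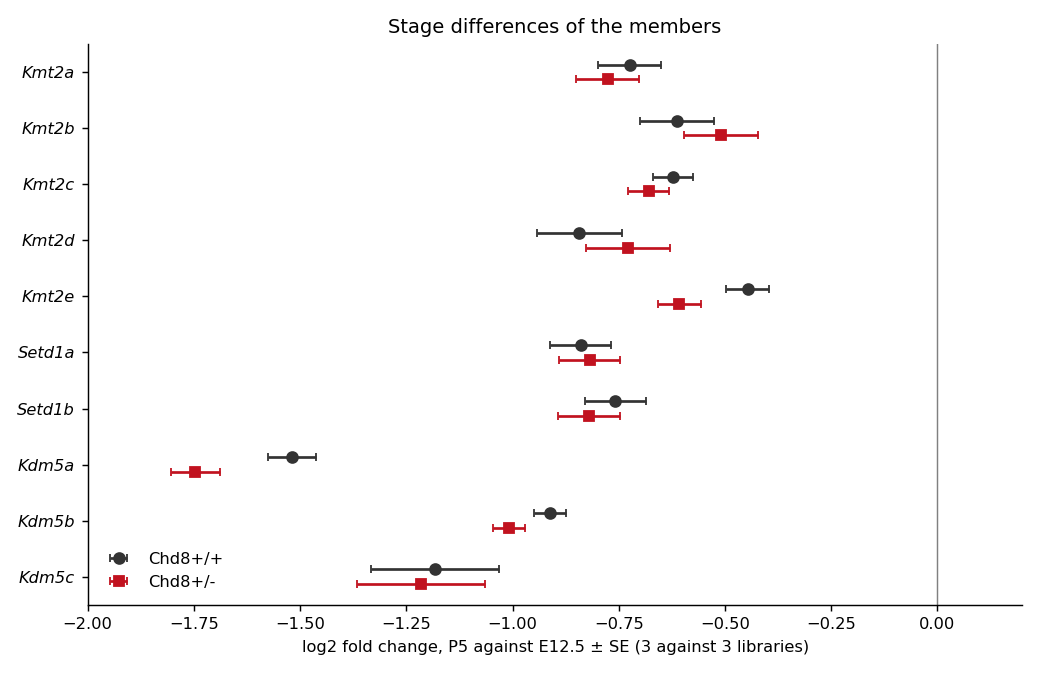
Log2 fold change from E12.5 to P5 of each member in Chd8+/+ (circles) and Chd8+/- (squares) libraries, with bars of 1 standard error (3 against 3 libraries, 12-library model). All values are below 0, from -0.45 for Kmt2e in Chd8+/+ to -1.75 for Kdm5a in Chd8+/- libraries.

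The difference between the stages in the effect of genotype was tested as an interaction. None of the 10 members was called by edgeR or DESeq2, and edgeR called 0 of 19676 genes (0%), whereas DESeq2 called 8 genes in all. At an unadjusted p under 0.05 in edgeR's test, 2 of 10 members were lower in the interaction, against 10% of all genes in either direction. Kdm5a had a log2 interaction of -0.23 ± 0.08 (SE, unadjusted p = 0.0128, edgeR adjusted p = 0.411), since it was 0.03 higher at E12.5 and 0.18 lower at P5 in Chd8+/- neocortex (log2 fold changes of 0.03 and -0.18). Kmt2e had a log2 interaction of -0.16 ± 0.07 (SE, unadjusted p = 0.0409, edgeR adjusted p = 0.477), which ran from -0.21 to -0.10 when 1 library was left out. Without the third Chd8+/- library at P5 the interaction was -0.31 for Kdm5a (edgeR adjusted p = 0.4004) and -0.15 for Kmt2e (edgeR adjusted p = 0.574). With offsets for gene length the interaction was -0.13 for Kdm5a (edgeR adjusted p = 0.667) and -0.08 for Kmt2e (edgeR adjusted p = 0.763). The remaining 8 members lay between -0.10 for Kdm5b and 0.11 for Kmt2d. Leaving out 1 library gave -0.118 to -0.0589 for Kdm5b, 0.0479 to 0.251 for Kmt2d and 0.0489 to 0.224 for Kmt2b. A genotype effect that differs between the stages was thus not shown for any member.

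Kdm5c lies on the X chromosome and escapes X inactivation, and its counterpart Kdm5d lies on the Y chromosome. Sex is not given in the labels. Xist, the RNA that coats the inactive X chromosome, was over 10 CPM in 4 libraries, 1 in each group, at 831 to 2033 CPM on the within-stage scale, and at most 2.23 CPM in the other 8. In these 4 libraries Kdm5d was at 0.676 to 1.11 CPM, against 27.97 to 98.1 CPM in the other 8. The library with Xist over 10 CPM was the third Chd8+/+ and the first Chd8+/- at E12.5, and the first of each genotype at P5.

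Kdm5c was highest in that library in all 4 groups. On the 12-library scale it stood at 257 CPM against 181 and 177 CPM in the Chd8+/+ group at E12.5, a ratio of 1.44 to the mean of the other 2. In the Chd8+/- group at E12.5 it stood at 228 against 191 and 180.2 CPM, a ratio of 1.23. At P5 it stood at 107 against 84.9 and 79.1 CPM in Chd8+/+ libraries (ratio 1.30) and at 100.4 against 79.5 and 78.2 CPM in Chd8+/- libraries (ratio 1.27). Kdm6a, a demethylase gene on the X chromosome whose protein is a partner of KMT2C and KMT2D, gave ratios of 1.501, 1.32, 1.31 and 1.22 in the same order. The autosomal Kdm5a and Kdm5b gave ratios between 0.91 and 1.06. The libraries were told apart by their own Xist values after the data were seen, so that these ratios are a description with no test.

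The summed CPM of Kdm5c and Kdm5d was 276.8, 273.4 and 258 in the Chd8+/+ and 229, 281 and 273.1 in the Chd8+/- libraries at E12.5. At P5 it was 108, 121.5 and 116 in the Chd8+/+ and 101, 110.2 and 106 in the Chd8+/- libraries. The library with high Xist had the lowest sum of CPM of its group each time. These sums depend on gene length. Per kilobase, Kdm5c and Kdm5d stood at 25.5 and 6.31 CPM in the first Chd8+/+ library at E12.5. In the third, with high Xist, they stood at 36.2 and 0.0565, so that on that scale its sum was not the lowest. The SD of Kdm5c in Chd8+/+ libraries at E12.5 was 45.04 CPM about a mean of 205 CPM, and that of the sum 10.01 CPM about 269 CPM. In Chd8+/- libraries at E12.5 the SD of the sum, 27.9 CPM, was above that of Kdm5c alone, 25.07 CPM. At P5 the SD was 14.7 CPM for Kdm5c and 7.01 CPM for the sum in Chd8+/+ libraries, and 12.4 and 4.50 CPM in Chd8+/- libraries. Without the 4 libraries, the log2 fold change of Kdm5c between genotypes was 0.05 at E12.5 in place of -0.04, and neither was called.

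**Figure D5:**
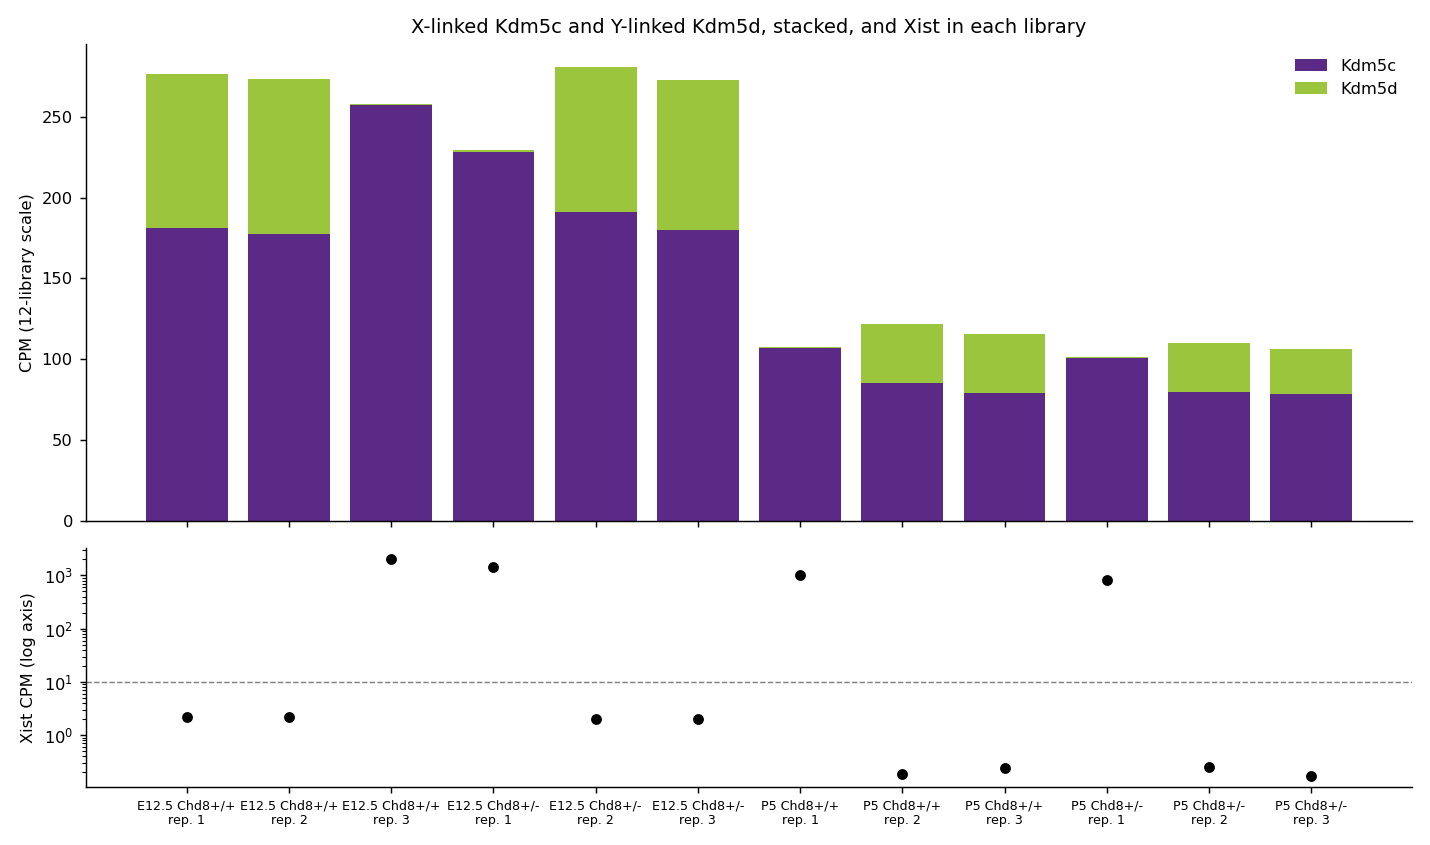
CPM on the 12-library scale in each of the 12 libraries; above, stacked bars of Kdm5c and Kdm5d from 0, and below, Xist on a log axis with a dashed line at 10 CPM. The 4 libraries above that line have almost no Kdm5d and the highest Kdm5c of their group, up to 257 CPM.

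The members work with other proteins, and 36 further genes of H3K4 methylation were described in the same fits. Of these, 35 passed the filter on low counts, the exception being Pagr1a, a partner of KMT2C and KMT2D. At P5, edgeR called 0 of 35 between genotypes and DESeq2 called 2, Bptf (DESeq2 adjusted p = 0.0145) and Phf2 (DESeq2 adjusted p = 0.0376), both lower, a share near the 5.28% of all genes that DESeq2 called. At an unadjusted p under 0.05 in edgeR's test, 8 were lower and 3 higher, against the 17.8% of all genes given above. The 3 higher genes encode core or partner subunits of the complexes. They were Dpy30 at a log2 fold change of 0.17 ± 0.06 (SE, edgeR adjusted p = 0.172), Wdr5 at 0.10 ± 0.04 and Men1 at 0.08 ± 0.03. Men1 encodes the menin that tethers KMT2A and KMT2B. Of the 4 core subunit genes 2 were lower, as was 1 of the 2 KMT2A and KMT2B partner genes. The 3 lower genes with the smallest p were Bptf at -0.16 ± 0.04 (SE, edgeR adjusted p = 0.110) and Phf2 at -0.17 ± 0.04, both readers of methylated H3K4, and Setd7 at -0.14 ± 0.04, a monomethyltransferase gene.

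At E12.5, edgeR and DESeq2 each called 0 of the 35, and 1 had an unadjusted p under 0.05 in edgeR's test, against 5.15% of all genes. That gene was Ing2, a reader of H3K4 trimethylation, at a log2 fold change of -0.17 ± 0.07 (SE, edgeR adjusted p = 0.942). Ing4 followed at -0.25 ± 0.12 and Rcor3 at -0.11 ± 0.07. The higher genes with the smallest p were Ash2l at 0.04 ± 0.04, Men1 at 0.04 ± 0.05 and Wdr82 at 0.03 ± 0.04. None of these 6 differed beyond the threshold.

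Between the stages most of the wider list fell, while a few genes rose, as no member did. In Chd8+/+ neocortex 33 of 35 were called, 30 lower and 3 higher, against 41.7% of all genes called lower. The list's median was -0.89 on the log2 scale. In Chd8+/- neocortex 34 of 35 were called, 30 lower and 4 higher, against 41.6% of all genes called lower. All 4 core subunits of the complexes fell in Chd8+/+ neocortex, with Rbbp5 at -1.20 ± 0.04 (SE, edgeR adjusted p = 2.26e-12). Rcor2, a corepressor that works with the demethylase KDM1A, fell most of the list at -3.09 ± 0.08 (SE), and Psip1, which anchors KMT2A to chromatin, was at -1.22 ± 0.04. The 3 that rose were Smyd3 at 1.98 ± 0.05 (SE, edgeR adjusted p = 3.5e-14), a methyltransferase gene, Spin1 at 0.41 ± 0.04, a reader, and Rcor3 at 0.29 ± 0.06. Ing2 at 0.15 and Kdm5d at -1.40 did not pass in Chd8+/+ libraries. In the interaction, edgeR and DESeq2 called 0 of the 35, and 3 had an unadjusted p under 0.05 in edgeR's test, against 10% of all genes. The smallest p among lower genes were those of Phf2 at -0.22 ± 0.08, Ash2l at -0.12 ± 0.05 and Spin1 at -0.13 ± 0.06, and among higher genes those of Prdm9 at 0.45 ± 0.24, Wdr5 at 0.10 ± 0.06 and Ing2 at 0.17 ± 0.10.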

How the data were processed

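The authors trimmed paired-end reads with Trim Galore 0.4.1, aligned them to GRCm38.p4 with TopHat2 2.1.0 and counted them per gene with featureCounts 1.5.0. The deposited values are raw counts per gene and sequencing run, without normalization. The command recorded with the P5 table sets no strand, and none is recorded for E12.5. The runs of each library were summed. Genes were tested with edgeR 4.0.16 under R 4.3.3 (TMM, default filterByExpr, quasi-likelihood test, Benjamini-Hochberg over all genes tested, threshold 0.05), within a stage for genotype and with all 12 libraries for stage and interaction. DESeq2 1.42.0 and limma 3.58.1 were alternatives, beside other scalings, filters, offsets for length, a replicate block and each library left out. Offsets for GC content and a term for Xist were added after seeing the data. The scripts were tested on simulated data. Standard errors are the absolute log2 fold change over the square root of F. Gene positions and lengths come from the deposited tables, and GC content from the longest GENCODE M21 transcript.

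The members and all lists were chosen with earlier results of these data known. All 10 members are named in the comparisons of genotype within a stage and of stage in Chd8+/+ libraries. Between stages in Chd8+/- libraries and in the interaction, some are given only as part of a range. Chd8 is the check of the labels, and Kdm5d and Xist stand beside Kdm5c. From the pathway list, the 3 higher and 3 lower genes with the smallest p are named, except between stages in Chd8+/- libraries. The genes DESeq2 called were named after their values were seen. Depth lies between 38774591 and 54695236 counts per library. Figures used matplotlib 3.10.9.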

Additional observations from a re-analysis of the deposited data

How the results depend on the processing

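Between the stages, all 10 members were lower and called in both genotypes under every alternative run. Between genotypes, 0 members and 0 pathway genes were called at P5, against 2 members and 2 pathway genes with DESeq2 and 2 and 2 with all genes of at least 1 count kept; leaving out 1 library gave 0 to 1 members and 0 to 1 pathway genes, the 1 in each case without the second Chd8+/- library. The cause was not tested. No alternative called a member at E12.5 or in the interaction. Leaving out a library leaves 2 in its group, whose spread is then taken from all groups.

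The log2 fold change of Chd8 at E12.5 kept its size but lost its call with a term for Xist over 10 CPM (-0.51, adjusted p = 0.0527) and without the libraries whose Xist is over 10 CPM (-0.50, adjusted p = 0.966), where 2 libraries a group remain. Leaving out 1 library gave -0.52 to -0.499, and the call was lost without the third Chd8+/+, the first Chd8+/- or the third Chd8+/- library. As a replicate block, the labels' numbers gave -0.51 for Chd8 at E12.5 (edgeR adjusted p = 0.346) and called 0 genes at E12.5 and 4 at P5. The deviations of libraries with the same number correlated at -0.311, -0.144 and -0.162 at E12.5 and at 0.255, 0.115 and 0.0289 at P5. Between libraries with different numbers the correlations ran from -0.121 to 0.272 at E12.5 and from -0.232 to 0.149 at P5. At P5 all 3 values of the same number were positive, but 1 was under 0.1. The highest, 0.255, joins the 2 libraries of high Xist. The labels name no shared litter or batch, so that the numbers were not taken to pair the libraries.

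Signs turned only in values that were not called. At E12.5, these were Setd1a with all genes of at least 1 count (-0.0045), and Setd1b (0.0342) and Kdm5c (0.0495) without the libraries of high Xist. At P5, offsets for gene length gave 0.0116 for Kmt2a and 0.0786 for Kmt2d; Kmt2b was at -0.0081 with all 12 libraries in 1 model, -0.0415 with offsets for GC content and -0.0084 without the libraries of high Xist, where Kmt2d was at 0.0153. In the interaction, offsets for gene length gave 0.0459 for Kmt2a, 0.0452 for Kmt2c, 0.0254 for Setd1b, 8.51e-05 for Kdm5b and 0.0360 for Kdm5c, offsets for GC content -0.0143 for Setd1a, and leaving out the libraries of high Xist 0.0122 for Kmt2c. Leaving out 1 library gave, at E12.5, -0.119 to 0.0103 for Kmt2a, -0.0642 to 0.0454 for Setd1a, -0.146 to 0.0281 for Setd1b and -0.143 to 0.155 for Kdm5c. With no change of sign, it gave -0.123 to -0.048 for Kmt2e, -0.105 to -0.0368 for Kmt2c and -0.0853 to -0.0362 for Kdm5b. At P5 it gave -0.0459 to 0.0816 for Kmt2b, -0.0823 to 0.0708 for Kmt2d, -0.0214 to 0.0747 for Setd1a and -0.181 to 0.0856 for Kdm5c. In the interaction it gave -0.0979 to 0.0466 for Kmt2a, -0.0370 to 0.104 for Setd1a, -0.134 to 0.0505 for Setd1b and -0.218 to 0.107 for Kdm5c.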
